A study of Mus musculus with 18 samples.

Results

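The SLC25 family holds the mitochondrial carriers, and its members were taken as every gene of the deposited tables whose mouse symbol is Slc25a followed by a number. That rule found 47 of 28096 genes, and it used no expression value. Of these 47, 41 passed edgeR's filter on low counts and were tested, and the other 6 (Slc25a21, Slc25a31, Slc25a34, Slc25a41, Slc25a48 and Slc25a54) had too few reads. Expression was measured by RNASeq of polyA RNA in 18 libraries of B cells isolated from the spleens of C57BL/6 N mice of at least 8 weeks. The mice were WT or lacked Ubqln1 (Ubqln1-/-), and the cells of each genotype were left resting, treated with an F(ab)2 fragment against IgM (anti-IgM, 10 μg/mL), which crosslinks the B cell receptor (BCR), or treated with LPS of K12 E. coli (20 μg/mL), which activates TLR4. RNA was taken after 4 hr, with 3 libraries for each of the 6 groups. In the knockout, exon 2 of Ubqln1 was removed by Cre in embryonic stem cells, so every cell of the mouse carries the deletion and not the B cells alone. Each library holds the RNA of wells pooled before purification, and the number of mice behind a library is not given in the sources used here.

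SLC25 carriers are small proteins of the inner mitochondrial membrane, made in the cytosol and inserted after their synthesis. They exchange nucleotides, phosphate, organic acids, amino acids, cofactors and metals between the cytosol and the matrix, which no charged metabolite crosses on its own. UBQLN1 is a ubiquitin receptor and chaperone that binds mitochondrial membrane proteins that have not reached their organelle. Resting B cells that meet antigen grow before they divide, and their need for carbon, nitrogen and nucleotide transport into mitochondria rises with that growth. The mRNA levels given here say nothing of the amount or the place of the carrier proteins.

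The libraries held 15368941 to 41072854 counts, with a median of 23257531, and every LPS-treated WT library was deeper than every LPS-treated Ubqln1-/- library. Ubqln1 itself lay between 229.5 and 339 CPM (counts per 1000000 of the scaled library size) in the 9 WT libraries and between 91.4 and 128 CPM in the 9 Ubqln1-/- libraries, without overlap. The reads left in Ubqln1-/- cells include those of exons that were not deleted. Summed over 5 B cell markers (Cd79a, Cd79b, Ms4a1, Pax5 and Cd22), the level was 5013 to 6192 CPM in resting WT cells, 1622 to 2166 after anti-IgM and 3116 to 4191 after LPS, and 6 T cell markers together did not exceed 1.70 CPM in any library. The sum of 3 dendritic cell markers moved with treatment as well, from 10.7 to 17.1 CPM in resting libraries to 19.9 to 27.7 with anti-IgM and 39.7 to 66.8 with LPS over both genotypes. The 2 plasma cell markers went the other way, from 67.3 to 99.8 CPM at rest to 45.6 to 69.4 with anti-IgM and 23.3 to 32.8 with LPS. The 8 myeloid and granulocyte markers were at 17.3 to 20.5 CPM at rest and 15.6 to 23.4 with anti-IgM, which overlap. With LPS they were lower, at 10.7 to 15.9 CPM. The part of these markers in the results was not tested. In these bulk samples, fewer cells of a type and less RNA per cell cannot be told apart.

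In resting WT B cells the family spanned more than 3 orders of magnitude in RPKM, the count per 1000 bases of gene width and 1000000 counts of the scaled library size, which is a level per length and can be compared between genes. Slc25a3 (Entrez gene 18674, chr10:91116574-91124046 in GRCm38), which carries the phosphate used by ATP synthase, was at 292, 331 and 304 RPKM in the 3 libraries and made up 31.7% of the summed RPKM of the family. All 3 lay above every resting WT library of the other members. Slc25a5 and Slc25a4, the exchangers of ADP and ATP, followed at 73.6 ± 5.51 and 63.9 ± 6.36 RPKM (SD, n = 3), and their libraries overlapped. Slc25a11, the oxoglutarate/malate carrier of the malate-aspartate shuttle, was at 51.7 ± 1.34 RPKM (SD, n = 3) and stood below both without overlap. Slc25a37, the iron importer mitoferrin 1, was at 46.0 ± 8.35 RPKM (SD, n = 3), and its libraries overlapped with those of Slc25a11 above it and of Slc25a39 below it. From Slc25a11 to Slc25a28, the mitoferrin 2 gene at 35.6 ± 1.14 RPKM (SD, n = 3), each neighbour in the order overlapped with the next. The lowest tested member was Slc25a43 at 0.244 ± 0.0706 RPKM (SD, n = 3).

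**Figure D1:**
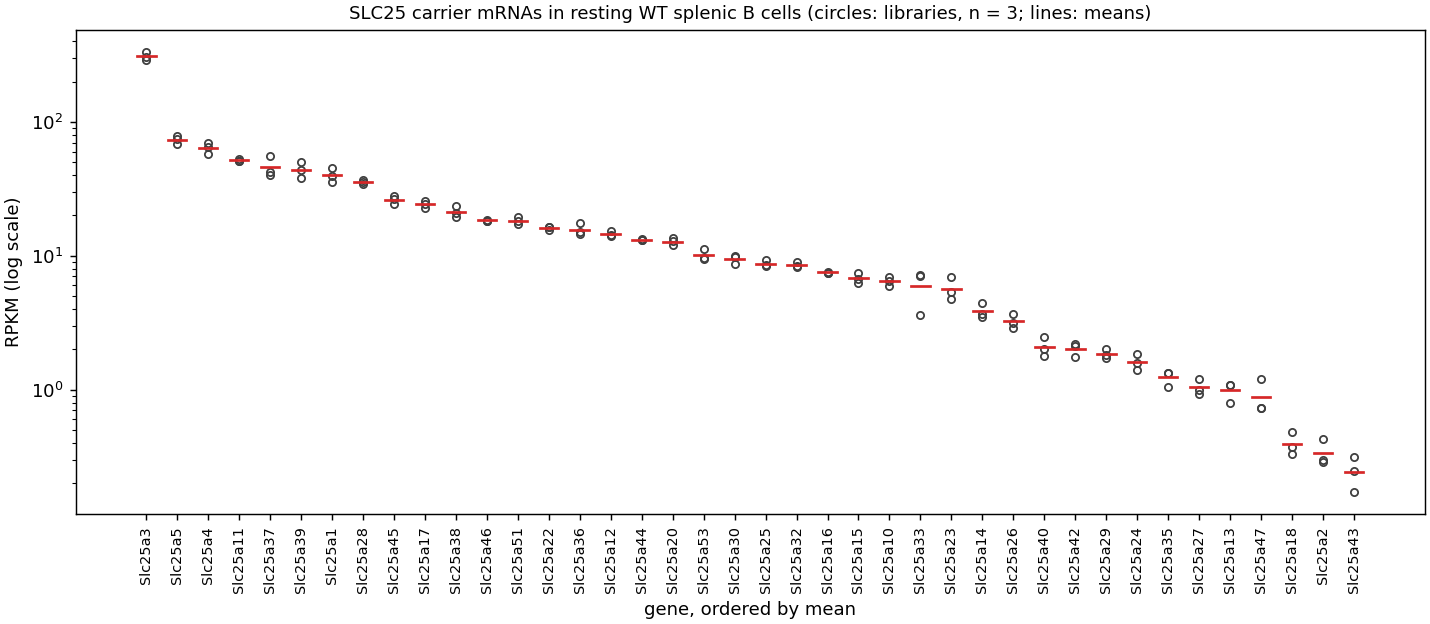
RPKM of 40 of the 41 tested SLC25 genes in resting WT splenic B cells, on a log scale, with 3 libraries as circles and their mean as a red line. Slc25a3 stood alone at 309 RPKM, a group from Slc25a5 to Slc25a28 lay between 73.6 and 35.6 RPKM, and the lowest members were under 1 RPKM.

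The 6 members that were not tested were near or at 0. Slc25a48 and Slc25a54 had no read in any of the 18 libraries, which over 441851784 counts allows at most 0.00679 CPM (3 counts, counting error only). Slc25a31, the ADP/ATP exchanger of male germ cells, had 2 reads in all. Slc25a41, an ATP-Mg/phosphate carrier without EF hands, had 4 reads, Slc25a21, the oxodicarboxylate carrier, had 5, and Slc25a34 had 46.

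Some of these genes share reads or bases with others, which limits single values. Slc25a4 and Slc25a5 are close paralogs, and Slc25a5 has processed pseudogenes, whose presence in the tables used here was not checked. With reads of 50 bases the authors' counting could thus have split or lost reads between these genes. By position of the whole gene from start to end, introns included, 7 members share bases with another gene of the tables. Among them are Slc25a11 (with Rnf167), Slc25a25 (with Naif1), Slc25a26 (with Lrig1), Slc25a35 (with Rangrf), Slc25a53 (with Zcchc18) and Slc25a2 (with Gm37013). Not all shared bases need lie in exons: Slc25a53 shares 6094 bases with Zcchc18, more than its own counted width of 3258. Slc25a2 shares 1346 bases with Gm37013, which is its whole counted width. The strand of the counting is not given in the sources used here, so reads in shared exons cannot be told apart. The values of these members are uncertain to that extent.

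Promoters were looked at because members changed with stimulation. For anti-IgM in WT cells their shares were near those of all genes (36.6% and 31.7% against 32.4% and 32.2%). RefSeq (GRCm38.p6) gave 46 promoters for 36 of the 47 members, each 300 bases long, from 250 before to 50 after an annotated start. Among the 11 without an entry were Slc25a2, Slc25a26, Slc25a27, Slc25a32, Slc25a35, Slc25a37, Slc25a41, Slc25a44, Slc25a46 and Slc25a51. The E-box CACGTG, the palindrome that MYC/MAX and other bHLH factors bind, was in 8 of the 46 member promoters (17.4%) and in 7.15% of all 32851 promoters of the table. Its 7 genes were Slc25a1, Slc25a13, Slc25a14, Slc25a15, Slc25a31, Slc25a33 and Slc25a36. Of the 11 members with a promoter that rose after anti-IgM in WT cells (see the responses that follow), 4 had it, and of the 11 that fell, 0 had it. Over all genes with a promoter, the E-box was in at least one promoter of 17.0% of the 3274 that rose and 9.00% of the 3355 that fell. These 4 promoters are shown 5′ to 3′ on the strand of the gene, with the E-box in capitals, since they belong to carriers that rose with both stimulations.
Slc25a33, chr4:149774218-149774517, minus strand: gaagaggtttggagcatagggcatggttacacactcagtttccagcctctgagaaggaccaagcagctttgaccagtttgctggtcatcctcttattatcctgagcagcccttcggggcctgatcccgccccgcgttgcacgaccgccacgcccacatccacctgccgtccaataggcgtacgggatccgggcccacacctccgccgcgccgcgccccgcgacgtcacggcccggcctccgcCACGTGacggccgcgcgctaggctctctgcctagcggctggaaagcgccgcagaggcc
Slc25a13, chr6:6217124-6217423, minus strand: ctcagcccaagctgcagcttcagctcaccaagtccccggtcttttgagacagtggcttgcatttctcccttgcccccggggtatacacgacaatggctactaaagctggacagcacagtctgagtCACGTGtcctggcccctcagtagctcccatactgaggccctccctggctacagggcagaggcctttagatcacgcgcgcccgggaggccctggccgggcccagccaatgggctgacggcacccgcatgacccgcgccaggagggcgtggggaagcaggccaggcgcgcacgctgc
Slc25a1, chr16:17928170-17928469, minus strand: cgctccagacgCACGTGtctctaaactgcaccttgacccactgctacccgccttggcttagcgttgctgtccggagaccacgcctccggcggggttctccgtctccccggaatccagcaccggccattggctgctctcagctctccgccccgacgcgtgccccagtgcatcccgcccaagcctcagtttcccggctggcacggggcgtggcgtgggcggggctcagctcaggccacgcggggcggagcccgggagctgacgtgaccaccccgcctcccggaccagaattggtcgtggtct
Slc25a15, chr8:22398228-22398527, minus strand: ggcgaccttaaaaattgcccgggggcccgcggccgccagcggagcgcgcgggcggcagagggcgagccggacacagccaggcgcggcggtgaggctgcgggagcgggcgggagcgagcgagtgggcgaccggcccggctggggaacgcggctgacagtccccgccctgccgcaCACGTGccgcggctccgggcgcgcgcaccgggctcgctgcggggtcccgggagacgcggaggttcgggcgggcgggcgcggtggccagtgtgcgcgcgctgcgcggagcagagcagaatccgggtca
Counted from the annotated start, the first base of the motif lay at -8 in Slc25a33, -77 in Slc25a15, -125 in Slc25a13 and -239 in Slc25a1. For Slc25a13 and Slc25a15 this start lies inside the gene, whose 5′ end is at 6217304 and 22398621. Their E-boxes thus lie within the gene, while those of Slc25a33 and Slc25a1 lie upstream of it. The other motifs were read on both strands. The GC box GGGCGG was in 82.6% of member promoters against 35.7% of all, and CCAAT in 47.8% against 37.4%. The AP-1 motif TGANTCA was in 4.35% of member promoters (Slc25a11 and Slc25a13) against 7.81% of all, and TATAAA in 4.35% against 13.6%. The promoters of all genes were not limited to genes that passed the filter on low counts. Of the 11 members that rose and the 11 that fell after anti-IgM, 9 and 10 had the GC box, 7 and 7 CCAAT, 1 and 1 the AP-1 motif and 0 and 0 TATAAA. Over all genes with a promoter that rose and fell, 70.3% and 67.5% had the GC box and 40.7% and 44.6% CCAAT. The AP-1 motif was in 5.62% and 6.77% of them and TATAAA in 7.97% and 8.55%. These matches are descriptions of the letters in this window, and no binding was measured.

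The question of the stimulations is how the carrier mRNAs respond when the BCR or TLR4 is engaged. After 4 hr of anti-IgM in WT cells, 15 of 41 members rose and 13 fell at an edgeR adjusted p under 0.05, against 32.4% and 32.2% of all 14161 genes tested. As shares of the members these are 36.6% and 31.7%, near the shares over all genes. Without Ubqln1, 14 rose and 13 fell, against 32.9% and 32.4% of all genes. Most calls were shared by the genotypes, which have no sample in common: 13 members rose in both (30.1% of all genes did) and 13 fell in both (29.5%). No member was called in opposite directions. The family thus did not move one way, with a median log2 fold change over the 41 members of 0.0379 in WT cells (-0.00961 over all genes).

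Larger responses to anti-IgM, called and over 2-fold, were seen for 5 members that rose and 5 that fell in WT cells, against 9.49% and 11.1% of all genes. Those that rose were Slc25a5, Slc25a13, Slc25a26, Slc25a33 and Slc25a39, and those that fell were Slc25a24, Slc25a35, Slc25a37, Slc25a45 and Slc25a53. In Ubqln1-/- cells the same 10 and Slc25a1 passed, 6 higher and 5 lower, against 9.60% and 10.7% of all genes. None of the 41 members passed the study's thresholds, a log2 fold change over 2 in size with an adjusted p under 0.001, which 3.76% of all genes passed in WT and 3.64% in Ubqln1-/- cells.

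With LPS, more members fell than rose. In WT cells 12 members rose and 19 fell, against 31.2% and 30.1% of all genes, so that 46.3% of the members were lower. The Ubqln1-/- cells had 12 that rose and 18 that fell, against 30.6% and 30.2% of all genes. In both genotypes alike, 12 rose (28.1% of all genes) and 16 fell (26.8%), and again no member was called in opposite directions. The median log2 fold change of the members was -0.270 in WT and -0.150 in Ubqln1-/- cells, against -0.0101 and -0.0203 over all genes. Over 2-fold, 2 rose and 4 fell in WT cells (7.84% and 7.94% of all genes), and 3 rose and 4 fell in Ubqln1-/- cells (7.82% and 8.12%). The members that passed were Slc25a22 and Slc25a33, among those that rose (in Ubqln1-/- cells also Slc25a47), and Slc25a23, Slc25a24, Slc25a35 and Slc25a45 among those that fell. At the study's thresholds there was again no member, while 1.80% and 1.74% of all genes passed.

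**Figure D2:**
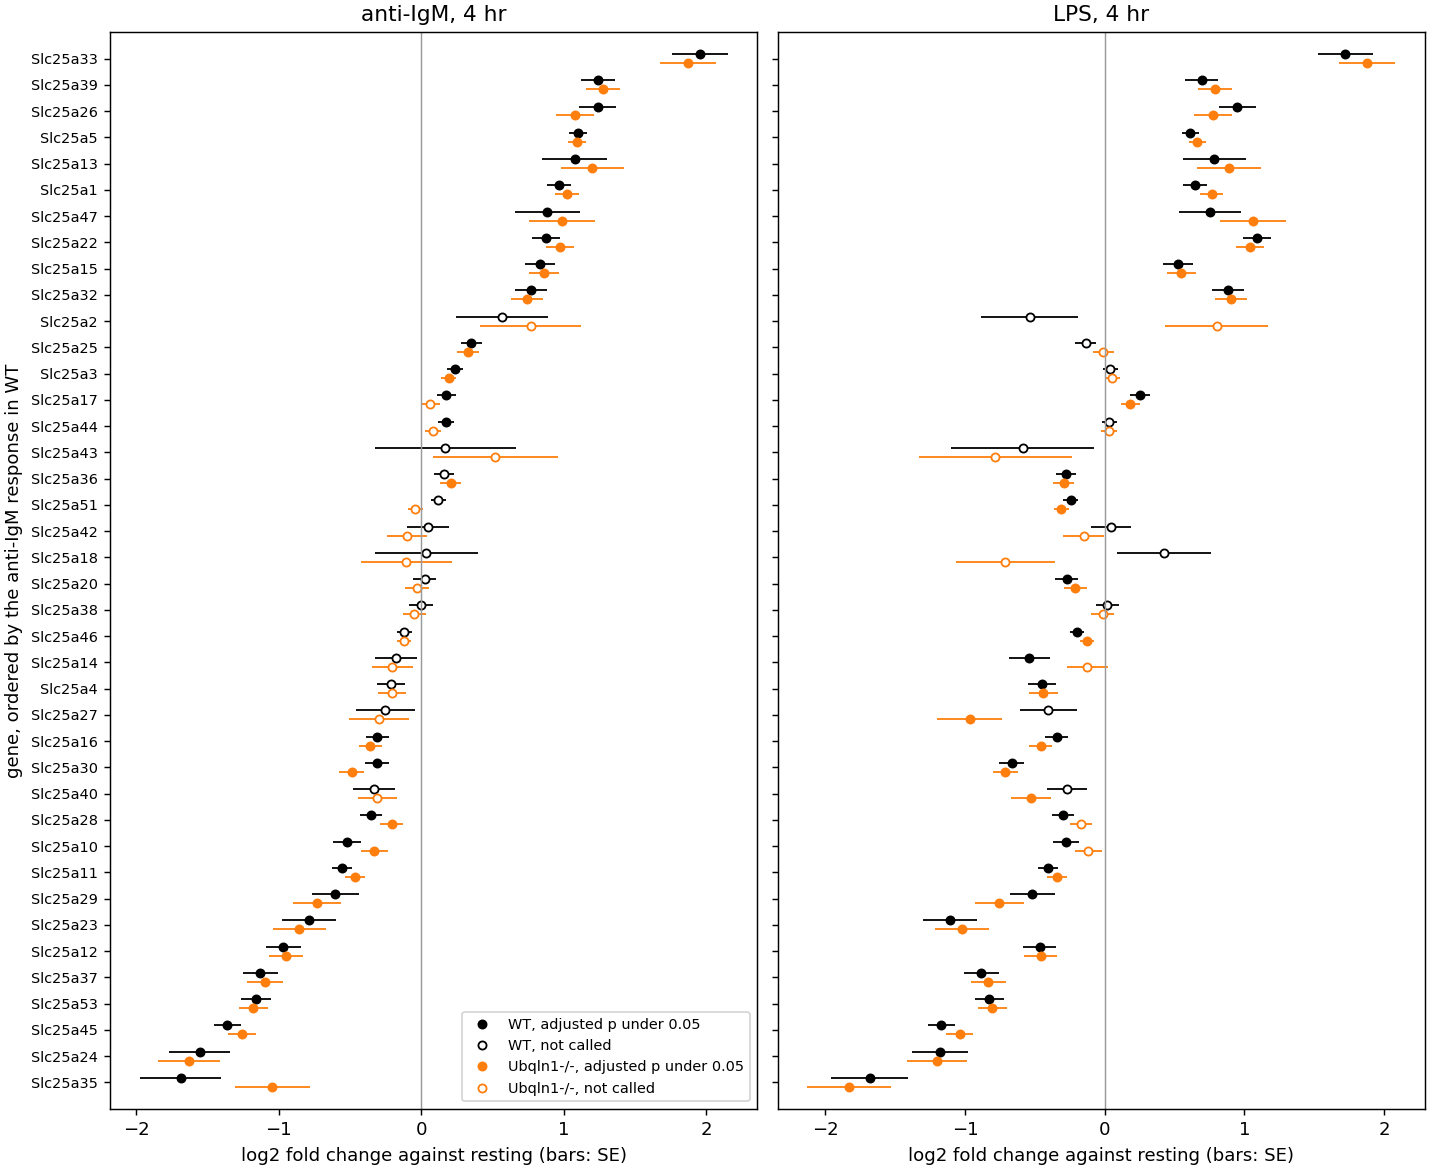
Log2 fold change against resting of 40 of the 41 tested members after anti-IgM (left) and LPS (right), with WT in black and Ubqln1-/- in orange, filled where the edgeR adjusted p was under 0.05 and with bars of 1 SE. Slc25a33 was the highest in all 4 responses (1.72 to 1.96), Slc25a35, Slc25a24 and Slc25a45 lay at the bottom of the order in WT, and black and orange points lay close together for most genes.

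The ADP/ATP exchangers went apart. Slc25a5 (Entrez gene 11740, chrX:36795597-36798808) was at 67.8, 78.8 and 74.0 RPKM in resting WT cells, at 150, 156 and 166 after anti-IgM and at 110, 119 and 109 after LPS. The 3 groups did not overlap, and the log2 fold changes were 1.10 (SE 0.0628, edgeR adjusted p = 6.40e-10) and 0.61 (SE 0.0624, edgeR adjusted p = 3.82e-07). In Ubqln1-/- cells they were 1.09 and 0.66, called as well. Slc25a4, the form best known from heart and muscle, was at 57.2, 69.8 and 64.5 RPKM at rest, 49.9, 51.3 and 64.6 with anti-IgM and 44.4, 44.8 and 51.3 with LPS. Its anti-IgM libraries overlapped with the resting ones (log2 fold change -0.21, SE 0.0996, edgeR adjusted p = 0.0713), while its LPS libraries were all lower (-0.45, SE 0.0994, edgeR adjusted p = 8.82e-04). With a term for the replicate number in the model, Slc25a4 was called for anti-IgM as well (edgeR adjusted p = 0.0149). The ratio of Slc25a5 to Slc25a4 in RPKM was 1.15 ± 0.0298 (SD, n = 3) in resting WT cells, 2.88 ± 0.263 (SD, n = 3) with anti-IgM and 2.42 ± 0.267 (SD, n = 3) with LPS. The ratio in Ubqln1-/- cells was 1.16 ± 0.0365, 2.84 ± 0.0822 and 2.49 ± 0.160 (SD, n = 3).

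Slc25a3, the most abundant member, moved little. It rose slightly with anti-IgM, to 356, 368 and 371 RPKM in WT cells (log2 fold change 0.24, SE 0.0535, edgeR adjusted p = 8.68e-04), and these libraries lay above the resting ones. With LPS it was at 300, 322 and 330 RPKM, overlapping with rest (0.04, SE 0.0535, edgeR adjusted p = 0.546). Summed over the whole family, RPKM was 974 ± 40.7 in resting WT cells, 1193 ± 31.9 with anti-IgM and 1055 ± 30.5 with LPS (SD, n = 3). Slc25a3 made up between 30.1% and 32.1% of this sum on average in each of the 6 groups.

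The ATP-Mg/phosphate carriers, which are opened by calcium through their EF hands and set the size of the matrix adenine nucleotide pool, were divided. Slc25a24 was at 1.57, 1.39 and 1.84 RPKM in resting WT cells, 0.413, 0.504 and 0.734 with anti-IgM and 0.687, 0.556 and 0.889 with LPS. Both stimulated groups lay below rest, with log2 fold changes of -1.55 (SE 0.214, edgeR adjusted p = 7.13e-06) and -1.18 (SE 0.202, edgeR adjusted p = 9.07e-05). Slc25a23 fell too, from 6.92, 5.34 and 4.74 RPKM to 3.79, 3.15 and 2.85 with anti-IgM and to 3.34, 2.22 and 2.30 with LPS. Its log2 fold change with LPS was -1.11 (SE 0.191, edgeR adjusted p = 9.38e-05). Slc25a25 was the one of the 3 that rose, and only anti-IgM was followed by a call, from 9.26, 8.36 and 8.54 RPKM to 12.2, 10.2 and 10.9 (0.35, SE 0.0749, edgeR adjusted p = 5.29e-04), while LPS gave 7.93, 8.08 and 7.75 RPKM. The difference between the stimulations was itself called (see the direct comparison that follows).

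Carriers of pyrimidine nucleotides and cofactors held the largest increase. Slc25a33 (Entrez gene 70556, chr4:149744036-149774267), which brings pyrimidine nucleotides to the matrix for the copying and transcription of mitochondrial DNA, was at 3.61, 7.04 and 7.14 RPKM in resting WT cells. It reached 20.1, 24.5 and 25.5 RPKM with anti-IgM and 17.4, 23.3 and 18.9 with LPS, with no overlap and log2 fold changes of 1.96 (SE 0.197, edgeR adjusted p = 1.99e-07) and 1.72 (SE 0.195, edgeR adjusted p = 1.20e-06). The Ubqln1-/- values were 1.87 and 1.88. Its promoter is among those shown, with the E-box next to the start. Slc25a36, its paralog, was at 15.1, 14.5 and 17.4 RPKM at rest, 16.8, 18.5 and 17.3 with anti-IgM and 12.1, 13.0 and 13.6 with LPS. Thus Slc25a36 was the higher of the pair at rest, with a ratio of Slc25a33 to Slc25a36 of 0.378 ± 0.126 (SD, n = 3), and the lower one after stimulation, with 1.33 ± 0.135 and 1.54 ± 0.223 (SD, n = 3).

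Slc25a26, which imports S-adenosylmethionine for methylation in the matrix, went from 3.13, 3.65 and 2.90 RPKM to 7.08, 7.69 and 8.22 with anti-IgM and 5.73, 6.81 and 6.22 with LPS (log2 fold changes 1.24, SE 0.133, edgeR adjusted p = 4.18e-07, and 0.95, SE 0.132, edgeR adjusted p = 1.07e-05). Slc25a32, which carries folate or FAD, rose by log2 fold changes of 0.77 and 0.88, and Slc25a17, the peroxisomal carrier of CoA, FAD and NAD, by 0.18 and 0.25. The call of Slc25a17 for anti-IgM ended without replicate 1 or 2 of the anti-IgM-treated or replicate 3 of the resting WT group (edgeR adjusted p = 0.0769, 0.0889 and 0.133). Slc25a51, the NAD carrier, was at 19.4, 18.1 and 17.1 RPKM at rest and fell to 15.1, 15.5 and 15.4 with LPS (-0.24, SE 0.0526, edgeR adjusted p = 7.11e-04), without a call for anti-IgM (0.12, edgeR adjusted p = 0.0554). A term for the replicate number in the model made Slc25a51 a call for anti-IgM (edgeR adjusted p = 0.0321). Slc25a16, linked to CoA transport, fell with both (-0.31 and -0.34), and Slc25a42, the other CoA carrier, was not called (0.05 for both).

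The carriers of aspartate and glutamate, which work in the malate-aspartate shuttle and in the supply of nitrogen, changed in opposite directions between paralogs. Slc25a12 (aralar) was at 14.3, 14.1 and 15.2 RPKM in resting WT cells, 6.83, 6.72 and 8.78 with anti-IgM and 10.1, 9.04 and 12.4 with LPS, and both stimulated groups were lower throughout. The log2 fold changes were -0.97 (SE 0.121, edgeR adjusted p = 2.37e-06) and -0.47 (SE 0.117, edgeR adjusted p = 0.00255). Slc25a13 (citrin) rose from 1.08, 1.07 and 0.798 RPKM to 2.38, 2.10 and 1.75 with anti-IgM and 2.06, 1.88 and 1.14 with LPS, by log2 fold changes of 1.08 (SE 0.227, edgeR adjusted p = 5.05e-04) and 0.79 (SE 0.226, edgeR adjusted p = 0.00629). Slc25a12 remained the more abundant of the pair in all 6 groups, since the ratio of Slc25a13 to Slc25a12 went from 0.0683 ± 0.0137 at rest to 0.287 ± 0.0774 with anti-IgM and 0.168 ± 0.0662 with LPS in WT cells (SD, n = 3). Slc25a22, a glutamate carrier, rose from 16.5, 16.4 and 15.5 RPKM to 27.9, 32.1 and 29.1 with anti-IgM and to 36.9, 38.1 and 28.1 with LPS (log2 fold change 1.09, SE 0.0985, edgeR adjusted p = 1.13e-07). Slc25a18, the other glutamate carrier, was under 1 RPKM in all libraries and was not called.

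Among the organic acid carriers, Slc25a1, the citrate carrier that feeds cytosolic acetyl-CoA and so lipid synthesis, rose from 35.3, 44.8 and 39.5 RPKM to 75.2, 82.7 and 76.2 with anti-IgM and 61.8, 68.2 and 57.5 with LPS. All 6 stimulated WT libraries were above the resting ones. Slc25a11 fell from 50.6, 53.2 and 51.3 RPKM to 38.6, 33.7 and 33.2 with anti-IgM (log2 fold change -0.56, SE 0.0697, edgeR adjusted p = 2.48e-06) and to 40.3, 37.0 and 39.8 with LPS (-0.41, SE 0.0691, edgeR adjusted p = 8.24e-05). Slc25a10, the dicarboxylate carrier, fell as well (-0.52 and -0.28), with no call for LPS without replicate 2 of the LPS-treated or replicate 2 or 3 of the resting WT group (edgeR adjusted p = 0.0901, 0.0516 and 0.0923).

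The iron and glutathione carriers split in the same manner. Slc25a37 (mitoferrin 1, Entrez gene 67712, chr14:69241848-69285544), which brings iron to heme and iron-sulfur cluster synthesis, was at 55.6, 40.2 and 42.3 RPKM in resting WT cells, 22.1, 21.2 and 19.7 with anti-IgM and 29.2, 22.6 and 23.0 with LPS. The log2 fold changes were -1.13 (SE 0.124, edgeR adjusted p = 5.64e-07) and -0.88 (SE 0.123, edgeR adjusted p = 1.10e-05), without overlap. Slc25a37 is also abundant in red cell precursors, and 6 erythroid markers summed to 4.03 to 6.14 CPM in resting WT libraries, 4.46 to 5.61 with anti-IgM and 3.58 to 4.88 with LPS, ranges that overlap. Slc25a28 (mitoferrin 2) fell in WT cells (-0.35 with anti-IgM and -0.30 with LPS), and the changes were smaller in size, so that the ratio of Slc25a28 to Slc25a37 went from 0.788 ± 0.113 to 1.34 ± 0.164 and 1.17 ± 0.115 (SD, n = 3). Slc25a39, needed for glutathione import into mitochondria, rose from 37.8, 50.2 and 43.8 RPKM to 87.8, 116 and 110 with anti-IgM and 65.8, 83.0 and 65.0 with LPS (1.25, SE 0.119, edgeR adjusted p = 1.17e-07, and 0.69, SE 0.118, edgeR adjusted p = 8.37e-05). Its paralog Slc25a40 was at 1.79 to 2.46 RPKM at rest in WT cells and was not called in WT cells, with -0.33 and -0.27. With a term for the replicate number in the model, Slc25a40 was called for anti-IgM (edgeR adjusted p = 0.0419).

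**Figure D3:**
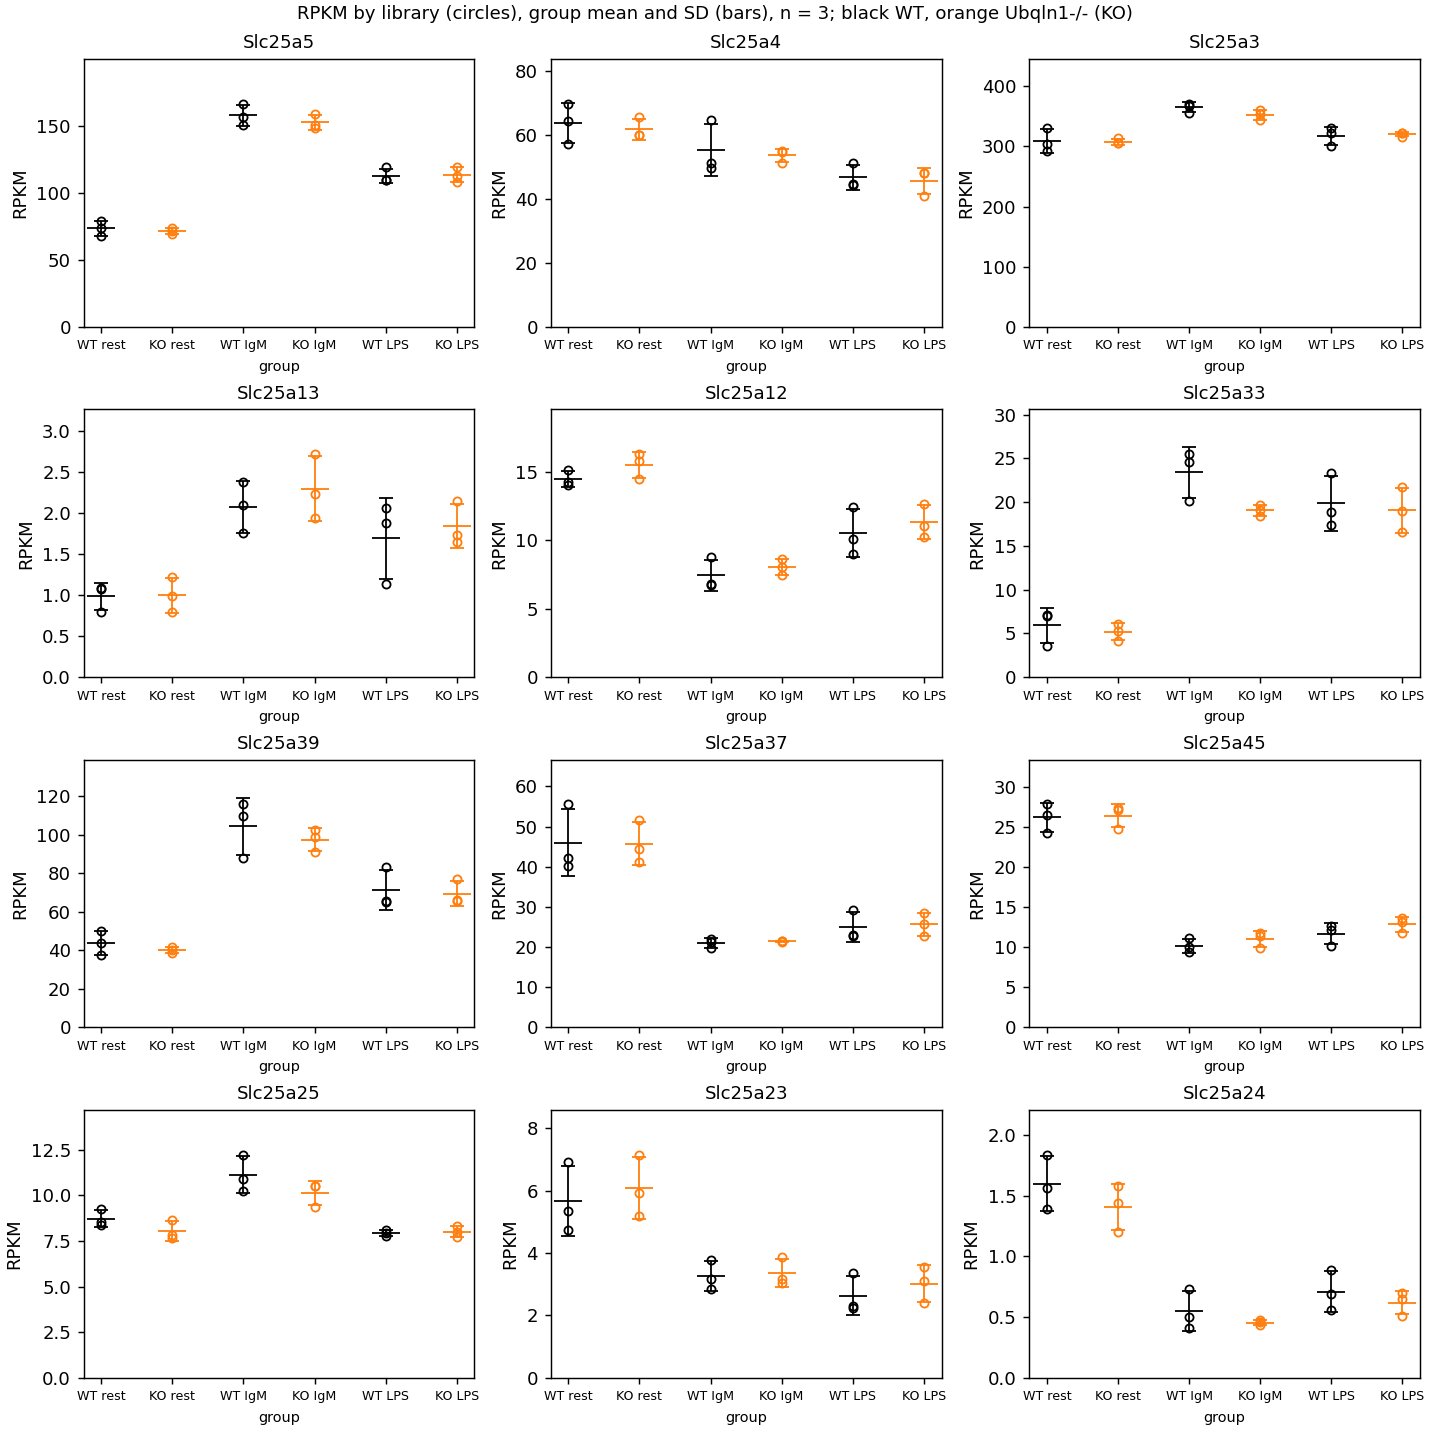
RPKM of 12 members in each of the 18 libraries (circles), with group mean and SD (n = 3 libraries), WT in black and Ubqln1-/- (KO) in orange, by treatment. Slc25a5, Slc25a13, Slc25a33 and Slc25a39 were higher in stimulated groups, Slc25a12, Slc25a37, Slc25a45, Slc25a23 and Slc25a24 were lower, and within each treatment the WT and KO libraries lay side by side.

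Among the other amino acid carriers, Slc25a15, the ornithine carrier of the urea cycle and polyamine supply, rose with both stimulations (0.83 and 0.52 in WT), and Slc25a29, a carrier of basic amino acids, fell with both (-0.60 and -0.52), the latter with no call without replicate 2 of the LPS-treated WT group (edgeR adjusted p = 0.0546). Slc25a38, the glycine carrier of heme synthesis, was not called in any of the 4 responses. Slc25a44, a carrier of branched-chain amino acids, rose with anti-IgM in WT cells by 0.17 (edgeR adjusted p = 0.0116), and was not called without replicate 2 of the anti-IgM-treated group (edgeR adjusted p = 0.0729). Slc25a20, the carnitine/acylcarnitine carrier of fatty acid oxidation, was not called with anti-IgM (0.03) and fell with LPS (-0.27 in WT and -0.21 in Ubqln1-/- cells). Its LPS call ended in WT cells without replicate 2 of the resting group (edgeR adjusted p = 0.0528), and in Ubqln1-/- cells without replicate 2 of the LPS-treated or replicate 1 or 2 of the resting group (edgeR adjusted p = 0.202, 0.139 and 0.0786). Of the 3 uncoupling-protein-like members, Slc25a30 fell in all 4 responses (in WT cells -0.31 with anti-IgM and -0.67 with LPS). Slc25a46, which sits in the outer membrane, fell with LPS (-0.20 in WT cells).

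Several of the largest decreases were those of little characterised members. Slc25a45 (Entrez gene 107375, chr19:5877801-5885768) was at 26.5, 27.8 and 24.3 RPKM in resting WT cells, 11.1, 9.42 and 10.1 with anti-IgM and 12.2, 10.2 and 12.6 with LPS. The log2 fold changes were -1.36 (SE 0.0972, edgeR adjusted p = 5.35e-09) and -1.17 (SE 0.0953, edgeR adjusted p = 4.01e-08), and stimulated and resting libraries were far apart. Slc25a53 went from 11.2, 9.57 and 9.43 RPKM to 4.71, 4.25 and 4.52 with anti-IgM and 6.46, 5.38 and 5.15 with LPS. Slc25a35 went from 1.33, 1.04 and 1.34 RPKM to 0.349, 0.332 and 0.471 with anti-IgM (-1.69, SE 0.287, edgeR adjusted p = 6.72e-05) and 0.477, 0.236 and 0.451 with LPS (-1.68, SE 0.275, edgeR adjusted p = 5.58e-05). Slc25a47, a carrier best known from liver, was at 0.728, 1.21 and 0.725 RPKM at rest and rose by 0.89 and 0.76 in WT cells.

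Anti-IgM and LPS were compared directly, since both responses share the resting libraries. In WT cells 3 members were higher with LPS than with anti-IgM and 11 were lower, against 17.4% and 15.0% of all genes. In Ubqln1-/- cells 3 were higher and 8 lower, against 16.8% and 14.5%. This second total of 11 fell to 7 when replicate 2 of the anti-IgM-treated Ubqln1-/- group was left out. No member passed the study's thresholds, while 2.51% and 2.24% of all genes did.

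Among the members higher with LPS in WT cells were Slc25a12 and Slc25a53, by log2 fold changes of 0.50 and 0.33. Slc25a12 and Slc25a53 fell with both stimulations, and less with LPS. Lower with LPS were Slc25a39 (-0.55, SE 0.116, edgeR adjusted p = 0.00140), Slc25a25 (-0.49, SE 0.0740, edgeR adjusted p = 5.82e-05) and Slc25a5 (-0.49, SE 0.0616, edgeR adjusted p = 8.81e-06). Slc25a36 (-0.44), Slc25a51 (-0.36), Slc25a30 (-0.36), Slc25a1 (-0.32), Slc25a15 (-0.31), Slc25a20 (-0.30) and Slc25a3 (-0.20) were lower as well, together with the scarce Slc25a2 (-1.11). Some of these calls rested on single libraries. Slc25a3 and Slc25a53 were not called without replicate 1 of the LPS-treated WT group (edgeR adjusted p = 0.0509 and 0.120), and Slc25a15 was not without replicate 3 of it (edgeR adjusted p = 0.142). Of the anti-IgM-treated WT group, replicate 1 decided Slc25a2 (edgeR adjusted p = 0.0622 without it), replicate 2 Slc25a15 and Slc25a53 (edgeR adjusted p = 0.136 and 0.0844) and replicate 3 Slc25a20 (edgeR adjusted p = 0.0567). With only the samples of the groups compared, Slc25a3, Slc25a12, Slc25a15, Slc25a30 and Slc25a53 missed the threshold (edgeR adjusted p = 0.0568, 0.0556, 0.0752, 0.0510 and 0.0692). The decrease of Slc25a36 and Slc25a51 below rest was thus seen with LPS and not with anti-IgM, and this difference passed the test in both genotypes. Slc25a33 was not called (-0.23, 95% interval -0.61 to 0.15, edgeR adjusted p = 0.357).

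The genotype comparisons ask whether carrier mRNAs depend on Ubqln1. None of the 41 members was called between Ubqln1-/- and WT cells in resting, anti-IgM-treated or LPS-treated cells, where 0.0565%, 0.0989% and 0.0424% of all genes were. At an unadjusted p under 0.05 in edgeR the members numbered 1, 1 and 4 of 41, against 4.22%, 5.14% and 3.93% of all genes. Limma with voom and DESeq2 also called 0 members in each condition. Most intervals were narrow: the 95% interval of the difference lay within 1.5-fold in either direction for 32, 31 and 32 members and within 2-fold for 38, 37 and 37. The wide ones belonged to the scarce Slc25a2, Slc25a18 and Slc25a43, with Slc25a35 in anti-IgM-treated and Slc25a27 in LPS-treated cells. A p that misses the threshold does not show that the genotypes are alike, and the intervals give what size of difference remains possible. For Slc25a5, the most abundant exchanger, the log2 differences were -0.04 in resting cells (95% interval -0.17 to 0.09), -0.05 in anti-IgM-treated cells (95% interval -0.18 to 0.08) and 0.01 in LPS-treated cells (95% interval -0.12 to 0.14).

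The smallest p were those of Slc25a40, Slc25a27 and Slc25a14. Slc25a40 was at 2.46, 1.79 and 2.02 RPKM in resting WT and 2.40, 2.70 and 2.73 in resting Ubqln1-/- cells, which overlap (log2 difference 0.33, SE 0.142, edgeR adjusted p = 1.00). With anti-IgM it was at 1.81, 1.69 and 1.44 against 2.06, 2.10 and 2.18 RPKM, with the Ubqln1-/- libraries all higher (0.35, SE 0.142, edgeR adjusted p = 0.843). Slc25a27, an uncoupling-protein-like member, was at 0.625, 0.851 and 0.906 RPKM in LPS-treated WT and 0.486, 0.462 and 0.408 in LPS-treated Ubqln1-/- cells, all lower (-0.81, 95% interval -1.29 to -0.33, edgeR adjusted p = 0.413). Slc25a14, of the same group, was at 2.69, 2.63 and 2.63 against 4.10, 3.55 and 3.17 RPKM with LPS, all higher (0.44, SE 0.149, edgeR adjusted p = 0.746). None of these passed the correction over all genes. Others of small p were Slc25a1 (-0.17) and Slc25a30 (0.15) at rest, and Slc25a10 (0.20) and Slc25a44 (-0.11) with anti-IgM.

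**Figure D4:**
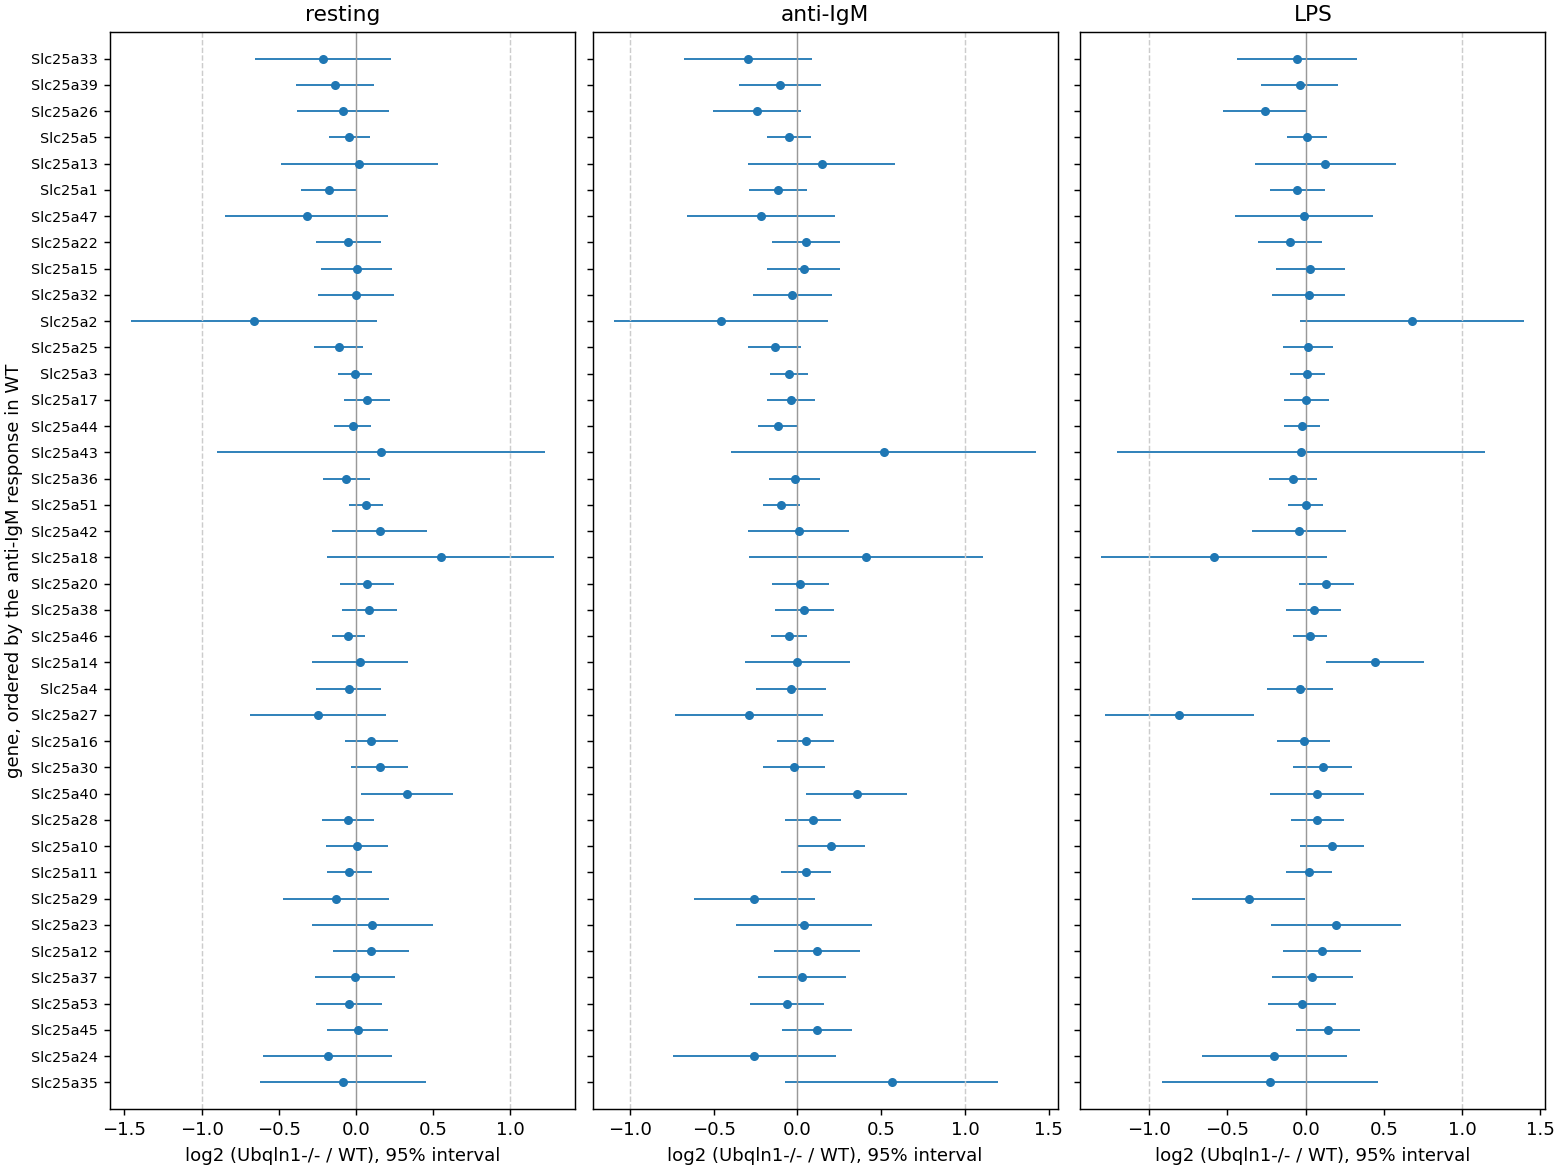
Log2 ratio of Ubqln1-/- to WT for 40 of the 41 tested members in resting, anti-IgM-treated and LPS-treated cells, with 95% intervals and dashed lines at 2-fold. No member was called, and of all 41 intervals 38, 37 and 37 lay within 2-fold, the widest being those of Slc25a2, Slc25a18 and Slc25a43.

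The interaction terms test whether the 2 genotypes respond differently. No member was called for anti-IgM or LPS, and neither was any other gene tested in edgeR (0% of all genes for both), and limma with voom and DESeq2 gave 0 members as well. At an unadjusted p under 0.05 there was 1 member for anti-IgM, Slc25a51 (log2 difference of responses -0.16, SE 0.0743), and 2 for LPS, both scarce. Of all genes, 0.989% and 1.55% were at this level. Slc25a2 was at 0.216, 0.245 and 0.213 RPKM in LPS-treated WT and 0.397, 0.307 and 0.408 in LPS-treated Ubqln1-/- cells (1.34, 95% interval 0.266 to 2.41). Slc25a18 gave -1.14 (95% interval -2.17 to -0.105). Next in order of p were Slc25a35 (0.64, 95% interval -0.188 to 1.48) and Slc25a30 (-0.18, 95% interval -0.437 to 0.0833) for anti-IgM, and Slc25a14 (0.42, 95% interval -0.0284 to 0.859) for LPS. Members called with a stimulation in one genotype alone were Slc25a17 and Slc25a44 (WT) and Slc25a36 (Ubqln1-/-) for anti-IgM, and Slc25a10, Slc25a14 and Slc25a28 (WT) and Slc25a27 and Slc25a40 (Ubqln1-/-) for LPS, and none of these differences between genotypes passed the interaction test.

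Carriers need the TOM complex, the small TIM chaperones and the TIM22 complex to reach the inner membrane, and the mRNAs of this route moved one way. Of its 12 genes all 12 rose with anti-IgM in both genotypes, and 10 in WT and 9 in Ubqln1-/- cells rose with LPS, with none lower. Of all genes, 32.4% in WT and 32.9% in Ubqln1-/- cells rose with anti-IgM, and 31.2% and 30.6% with LPS. The median log2 fold change of the 12 was 0.872 with anti-IgM and 0.703 with LPS in WT cells, against -0.00961 and -0.0101 over all genes. Timm10, a chaperone of the intermembrane space, rose by 1.74 and 1.71, its partner Timm9 by 1.49 and 1.42, Tomm40, the pore of the outer membrane, by 1.24 and 1.04, and Timm22, the insertion channel, by 0.39 and 0.30. Timm29, a subunit of the same complex, rose with anti-IgM (0.30) and was not called with LPS (-0.02). The list was chosen with earlier results of these data known. Between genotypes 0 of the 12 were called in any condition.

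The enzymes of the malate-aspartate shuttle, which work with Slc25a11, Slc25a12 and Slc25a13, were 4 of 4 higher with anti-IgM in both genotypes (32.4% and 32.9% of all genes were). With LPS 3 rose (31.2% of all genes in WT cells) and 1 fell (30.1%), which was Mdh1, the cytosolic malate dehydrogenase (-0.40, SE 0.0973, edgeR adjusted p = 0.00208). Of the carriers, Slc25a13 rose with anti-IgM like the enzymes, while Slc25a11 and Slc25a12 fell. Of the SLC25 proteins with other symbols, Ucp2 fell in WT cells (-0.63 with anti-IgM and -0.67 with LPS), as did Mtch1 (-0.73 and -0.38), whereas Mtch2, an insertase of the outer membrane, rose by 0.60 and 0.50. Ucp3 was not called, and Ucp1 was not tested. Of 12 other transporters of both membranes, 5 rose and 4 fell with anti-IgM in WT cells, and 5 rose and 3 fell with LPS, against 32.4%, 32.2%, 31.2% and 30.1% of all genes. They included Sfxn1, the serine carrier of one-carbon metabolism, which rose by 1.34 and 1.51, and Sfxn3 and Sfxn5, which fell with anti-IgM (-1.08 and -1.36).

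**Figure D5:**
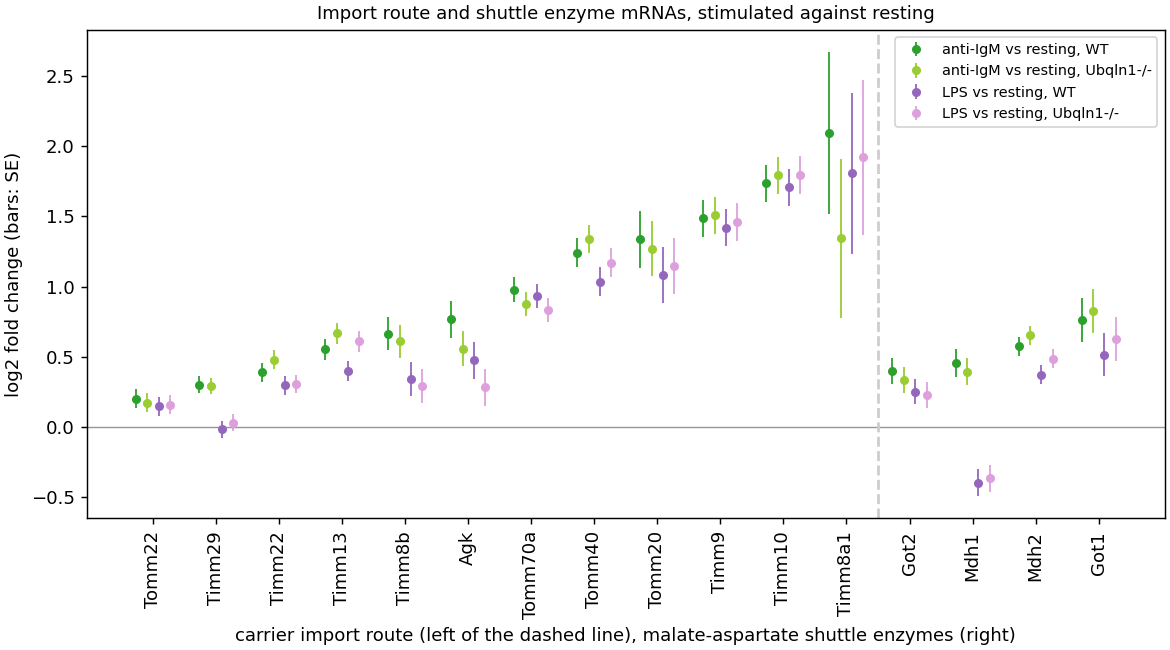
Log2 fold change against resting, with bars of 1 SE, for 12 genes of the carrier import route and 4 malate-aspartate shuttle enzymes after anti-IgM (green) and LPS (purple) in WT and Ubqln1-/- cells (lighter). All 12 import genes were above 0 with anti-IgM, and Mdh1 was above 0 with anti-IgM and below 0 with LPS.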

How the data were processed

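RNASeq (TruSeq v2, single-end 50 base reads, HiSeq2500) covered 18 libraries, and the study gives 3 independent experiments for its RNASeq plots. The main fit has no term for the experiment. Its p-values thus measure the spread between the 3 libraries of a group, which includes any spread between experiments. Groups came from the labels, where 1 library in each group has no number and was numbered 1 by elimination. The authors mapped the reads to GRCm38 (GSNAP, with limma and R 3.2.2 in the submitters' notes) and deposited the raw count, the RPKM and the gene width of 28096 Entrez genes. The counting program, annotation and strand are not given in the sources used here.

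RefSeq (GRCm38.p6) symbols covered 89.1% of the genes and 95.8% to 96.2% of the counts. Counts were tested with edgeR 4.0.16 (R 4.3.3), with TMM, its expression filter (14161 genes), the quasi-likelihood test, one term for each of the 6 groups over all libraries and no block. P-values were adjusted over all genes tested (Benjamini-Hochberg), and calls had an adjusted p under 0.05. RPKM and CPM used TMM-scaled library sizes over the tested genes. SE is the size of the log2 fold change divided by the square root of F. The scripts were tested on simulated data.

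Members and lists were chosen with earlier results of these data known. Values are given for the 5 members highest in resting WT cells, the 8 called members with the largest change for each stimulation and the 6 for LPS against anti-IgM in WT cells (at least 1 CPM in the higher group), and the 3 with the smallest p in each genotype comparison and interaction. Other members named were chosen for their role after their values were seen. Alternatives were limma 3.58.1 with voom, DESeq2 1.42.0, RLE normalization, other filters, a replicate block, only the groups compared, the study's thresholds, the deposited RPKM and leaving out each library. The values of 1 member and 1 marker are not reported here. Figures used matplotlib 3.10.9.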

Additional observations from a re-analysis of the deposited data

How the results depend on the processing

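At the study's thresholds the count of members called was 0 in each of the 6 comparisons between treatments, because these members changed by less than 4-fold. The comparison of LPS with anti-IgM moved most with the model. In WT cells it gave 14 members, 22 with the replicate block and 9 with only the samples of the groups compared. In Ubqln1-/- cells it gave 11 members, 18 with the replicate block, 13 with only the groups compared and, over the fits that left out 1 library, between 7 and 11. The share of all genes called under these alternatives was not counted, so the changed counts are not read as a trait of the carriers. The cause was not tested.

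The paired check found that samples with the same replicate number deviated together. Their mean correlation was 0.266 over 45 pairs, and -0.132 for different numbers. The second value is no separate comparison. Deviations from a group mean cancel over the 3 libraries of the group, which ties it to the first. Of the 45 pairs 43 were over 0.1 and 2 were not (lowest 0.0550). The labels leave 1 library in each group without a number, so the main fit does not take the numbers to pair the samples. The study names paired tests for its RNASeq plots and models with a single term for its gene lists. All 18 libraries correlated best with their own number. This is a hint from the data, since no label ties a number to an experiment. The block kept all 28 members called in WT cells after anti-IgM. It added Slc25a4, Slc25a36, Slc25a40, Slc25a46 and Slc25a51 (edgeR adjusted p between 0.0148 and 0.0419). For LPS against anti-IgM in WT cells it kept all 14 and added Slc25a4, Slc25a10, Slc25a11, Slc25a14, Slc25a23, Slc25a26, Slc25a37 and Slc25a44. In Ubqln1-/- cells it kept all 27 and gave 30 after anti-IgM, and it gave 0 members in every genotype comparison and interaction.

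All other counts stayed within 1.5 times under limma with voom, DESeq2, RLE normalization and both filters. No member called changed direction under any alternative. Beside the lost calls given with the results, Slc25a17 and Slc25a44 lost theirs after anti-IgM in WT cells with only the groups compared (adjusted p = 0.0784 and 0.0796), and Slc25a28, Slc25a36, Slc25a17, Slc25a46, Slc25a27, Slc25a15, Slc25a1 and Slc25a53 each lost a call in Ubqln1-/- cells without single libraries (adjusted p between 0.0514 and 0.169). With only the groups compared, Ubqln1-/- cells lost Slc25a28 for anti-IgM and Slc25a20 and Slc25a46 for LPS (edgeR adjusted p between 0.0514 and 0.0820). Without the count filter these were lost too, as was Slc25a17 for anti-IgM in WT cells (edgeR adjusted p between 0.0541 and 0.226). For LPS against anti-IgM in Ubqln1-/- cells, Slc25a27 was lost with only these groups (edgeR adjusted p = 0.0627) and with voom (limma adjusted p = 0.0768). In Ubqln1-/- cells the LPS calls of Slc25a17 and Slc25a46 ended in most of the fits that left out 1 library. The deposited RPKM was 0.839 to 0.891 times the RPKM given here, since its total per library is larger. Depth limits Slc25a2, Slc25a18 and Slc25a43, whose intervals are the widest.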
